A study of Caenorhabditis elegans with 12 samples.

Results

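Gene expression of aged worms was compared between 2 strains of the nematode Caenorhabditis elegans, the laboratory wild type N2 and the transnuclear strain CN30. Each strain was sampled as whole worms at days 6, 9 and 12, with 1 library of total RNA per strain and day. The comparison therefore rests on 3 pairs of libraries of the same age. Its members are all genes with at least 1 FPKM (fragments scaled by transcript length and by the mapped fragments of a library) in at least 3 of these 6 libraries. These were 13015 of the 22191 rows of the deposited mRNA table, and 2208 of the 13015 were loci assembled from the reads, written MXLOC, rather than annotated genes. With no replicates within a day, a p-value sets the mean strain difference against its spread among the 3 days, noise of single libraries included. The fit draws this spread towards that of genes of similar level. A difference that changed with age is thus less likely to pass. The labels do not say whether the cultures were separate, so part of that spread may be technical. Values of a gene are given as FPKM in the order of days 6, 9 and 12. A difference is CN30 minus N2 on the log2(FPKM + 1) scale, the mean of the 3 pairs, with its SE and the p adjusted over all genes in limma. The added 1 makes differences of weakly expressed genes smaller than their ratios.

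In a transnuclear strain the nuclear genome of one strain sits in the cytoplasm of another, so the strain carries a foreign mitochondrial genome. Mitochondria encode a few subunits of the respiratory chain and depend on the nucleus for the rest, and variants of mitochondrial DNA are therefore tested for effects on nuclear gene expression and ageing. The labels name neither the strain that gave CN30 its nucleus nor the one that gave its mitochondria, so nuclear and mitochondrial differences from N2 cannot be told apart. Titles spell the strain NC30. Both strains were fed E. coli OP50 on plates, and each strain also has 3 libraries at day 0, which are given here only as values beside the later ones.

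Much of the RNA of an adult hermaphrodite comes from its germ line, in particular from oocytes, while neurons, muscle and epidermis give smaller shares. In RNA of whole worms, fewer cells of a type and less RNA per cell cannot be told apart, which holds for each tissue list below.

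The libraries differed before any gene was tested. Summed FPKM lay between 726252 and 779302, and the depth is unknown because no read counts were used. CN30 had 13460, 13315 and 13247 genes at 1 FPKM or more at days 6, 9 and 12, against 11831, 11934 and 12565 in N2. Correspondingly fewer rows stood at exactly 0 in CN30 (2178, 2108 and 2387) than in N2 (3692, 3782 and 3047). On the first principal component, which held 55.5% of the variance, the libraries ran from N2 day 6 at 54.32 to CN30 day 12 at -54.26. Within each strain the older library stood nearer the CN30 day 12 end, and CN30 day 6 (-4.96) stood beside N2 day 12 (-7.11). On the second component, with 21% of the variance, CN30 day 6 stood apart at 47.54, and the next library was CN30 day 9 at 9.24.

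**Figure D1:**
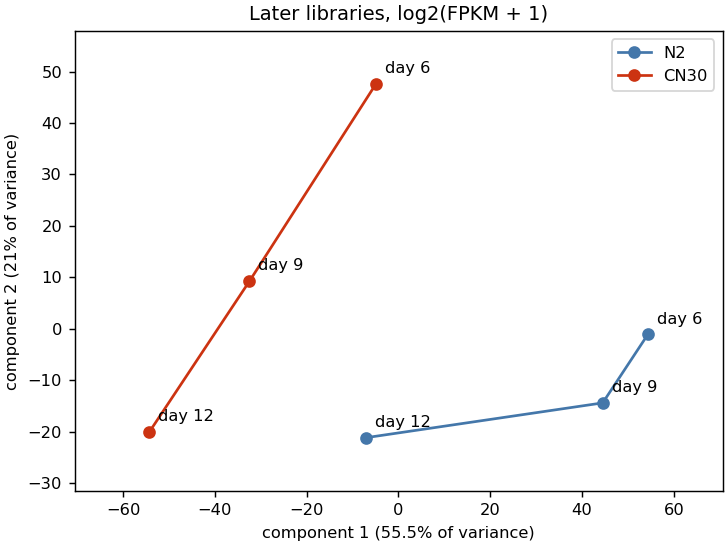
Principal components of log2(FPKM + 1) over the 13015 genes tested. Each point is 1 library, labelled by strain and day, and the axes give the first (55.5%) and second (21%) component; CN30 day 6 lies next to N2 day 12 on the first and at 47.54 on the second.

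The CN30 day 6 library also carried transcripts that were near 0 or lower in CN30 days 9 and 12. By a rule chosen after the values were seen, 4 loci had under 3% of the N2 value in CN30 at days 0, 9 and 12, namely fbxa-206, Y102A5C.2, ecps-2 and MXLOC_019057. In CN30 day 6 they stood at 11.7 to 18.6% of N2 day 6 (median 15.8%), against at most 1.8% at day 9 and 2.13% at day 12. The reverse case held 1 locus, MXLOC_020436, which was near 0 in N2 and stood at 0.293% of CN30 in N2 day 6. The genes it overlaps were not near 0 in N2. There col-178 had FPKM of 207.68, 205.6 and 109.69, and col-179 of 47.99, 31.39 and 28.64. For this locus, reads given to it or to these genes are thus not told from a difference in expression. Summed cuticle collagens, the structural proteins of the worm's exoskeleton, reached 9484 FPKM in CN30 day 6 against 2245 and 924 in CN30 days 9 and 12 and 3261 to 3850 in N2. Major sperm protein genes summed to 427.7 FPKM there, against 56.17 and 73.2 in the older CN30 libraries and 15.95 to 183.5 in N2. What these transcripts share, and whether the library holds RNA of other worms, was not tested. The values are used here as deposited.

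Of the 13015 genes, 1690 (13%) differed between the strains in limma at an adjusted p under 0.05. In CN30 1272 were higher (9.77% of those tested) and 418 were lower (3.21%). For comparison, the strains did not overlap in 2823 genes that were higher in CN30 (21.7%) and in 1696 that were lower (13%). All 3 day pairs had the same sign in 4659 genes that were higher (35.8%) and 3145 that were lower (24.2%). The median log2 difference over all genes tested was 0.06, and 0.09, 0.09 and 0.01 at days 6, 9 and 12.

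The higher and the lower calls differed in level and size. The 1272 higher calls had a median of 9.73 FPKM over the 6 libraries and a median difference of 1.01 on the log2 scale. The 418 lower calls had a median of 49.3 FPKM and a median difference of -0.63. In N2 the median of the higher calls was 4.03, 4.71 and 7.83 FPKM at days 6, 9 and 12, and in CN30 it was 11.07, 13.7 and 16.7. The median FPKM of the lower calls was 65.4, 59.1 and 51.5 in N2 against 42.4, 36.9 and 33.3 in CN30. Higher calls thus had larger medians at each later day in both strains, and lower calls smaller ones. Of genes at 100 FPKM or more, 6.65% were higher and 8.28% lower, whereas of the 3974 genes below 5 FPKM 445 were higher and 46 lower. Part of the excess of higher calls lies among weakly expressed genes, where N2 also had more rows at 0, and the part of detection in it was not tested.

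**Figure D2:**
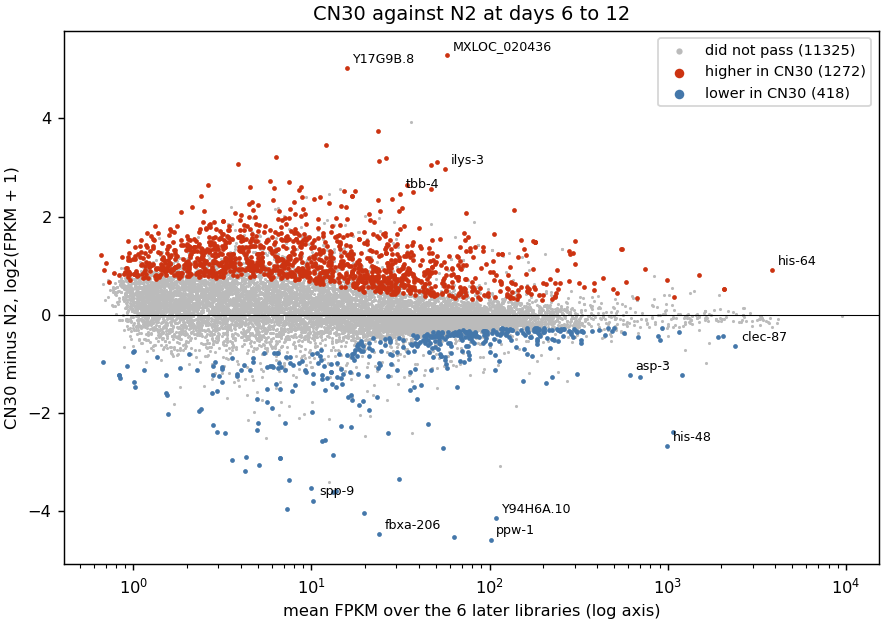
Log2 difference of each gene between the strains (CN30 minus N2, mean of 3 day pairs) against its mean FPKM on a log axis. Red points are the 1272 genes higher and blue points the 418 lower in CN30 at an adjusted p under 0.05; of the 4 level classes compared, lower calls outnumber higher ones only at 100 FPKM or more.

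These counts depend on single libraries. When N2 day 9 or CN30 day 9 was dropped, 0 genes passed in limma, although 2931 and 2783 had an unadjusted p under 0.05. Dropping N2 day 6 left 25 calls and dropping CN30 day 6 left 30, of which 21 were lower. Dropping a day-12 library left 1050 calls (N2) or 930 (CN30), and a fit that ignored the pairing by day gave 134. Every call named below was thus lost without either day-9 library, and some that held without a day-6 library are pointed out. Since each estimate is a mean of same-day pairs, dropping 1 library discards its pair. Over all 55 gene lists, the only calls left without CN30 day 6 were 4 lower collagen, 2 lower histone and 2 lower F-box or BATH genes, 1 lower P granule gene and 1 higher small heat shock gene. All other lists then had 0 calls. Quantile normalization gave 548 higher and 325 lower genes, and median-ratio rescaling 1227 and 815.

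The genes called at days 6 to 12 had smaller median differences at day 0. The median day-0 difference was 0.12 for the higher calls and -0.02 for the lower calls, against 0.08 for all genes tested. All 3 day-0 CN30 libraries lay above all 3 of N2 in 21.6% of the higher calls, against 18.8% of all genes, and below them in 27.8% of the lower calls, against 9.93% of all genes. Tissues and pathways are described first, and loci that differed at all ages last.

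Genes that oocytes load for the embryo were lower in aged CN30. Of 39 oocyte and maternal genes, all tested, 18 fell (46.2%), 0 rose and 21 did not pass, while 3.21% of all genes fell and 9.77% rose. Of all genes 24.2% were lower in CN30 in all 3 pairs, and so were 32 of the 39. Their median difference was -0.33, and -0.25, -0.45 and -0.26 at days 6, 9 and 12, against 0.06 for all genes. Their summed FPKM was 18710, 18040 and 15250 in N2 and 15100, 14030 and 12670 in CN30, every CN30 sum being below every N2 sum. At day 0 the median difference was 0.18. Without CN30 day 6 the median was -0.37 and 0 passed, and quantile normalization left 9 lower.

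egg-5 and egg-4 encode pseudophosphatases of the egg-to-embryo transition. egg-5 had FPKM of 223, 211 and 184 in N2 and of 132, 116 and 107 in CN30 (chromosome I, 4168984 to 4171589, WBcel235). Each N2 value was above every CN30 value, a difference of -0.79 ± 0.06, adjusted p = 0.0207. egg-4, its near-identical paralog, had FPKM of 227, 218 and 222 in N2 and of 152, 151 and 136 in CN30, again without overlap (-0.60 ± 0.06, adjusted p = 0.0261). Reads that fit both genes may have been split between them. puf-6, a Pumilio-family RNA-binding protein gene, had FPKM of 139, 126 and 116 in N2 and of 87.8, 68.99 and 67.4 in CN30 (-0.76 ± 0.07, adjusted p = 0.0241). The assembled locus over it, MXLOC_006908, was also lower (-0.86 ± 0.16, adjusted p = 0.0403). rme-2, the yolk receptor of oocytes and chosen after its values were seen, had FPKM of 874, 824 and 661 in N2 and of 682, 556 and 479 in CN30 (-0.46 ± 0.07, adjusted p = 0.0301).

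The most abundant transcripts that were lower had varied roles. cpg-2, a chondroitin proteoglycan of the eggshell, had FPKM of 2655, 2437 and 1936 in N2 and of 1874, 1778 and 1511 in CN30 (-0.44 ± 0.06, adjusted p = 0.0315). clec-87, a C-type lectin gene, had FPKM of 3209, 2984 and 2589 in N2 and of 2146, 1759 and 1717 in CN30, with no overlap (-0.65 ± 0.07, adjusted p = 0.0261). The glutamine synthetase gene gln-6 had FPKM of 686, 659 and 581 in N2 and of 552, 498 and 443 in CN30 (-0.37 ± 0.05, adjusted p = 0.0319), and dut-1, which encodes dUTPase, had FPKM of 475, 452 and 435 in N2 and of 388, 357 and 352 in CN30 (-0.31 ± 0.05, adjusted p = 0.0371). At day 0 none of these 4 was lower in CN30 by its mean: cpg-2 had 608 FPKM in N2 and 763 in CN30, clec-87 521 and 563, gln-6 139.7 and 194, and dut-1 83.8 and 115.

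Other germline lists moved less. Of 27 tested meiosis and germline chromatin genes 2 fell (7.41%) and 0 rose, against 3.21% and 9.77% of all genes. Their median was -0.20. The 2 were syp-2, a synaptonemal complex gene (-0.36 ± 0.07, adjusted p = 0.0444), and xnd-1, which sets where crossovers form (-0.35 ± 0.07, adjusted p = 0.0424). Of 35 P granule and small RNA genes 5 fell (14.3%) and 3 rose (8.57%). hrde-1, the nuclear Argonaute of heritable silencing, had FPKM of 385, 392 and 368 in N2 and of 299.6, 245 and 259 in CN30 (-0.52 ± 0.08, adjusted p = 0.0321). pgl-1, a core P granule protein gene, had FPKM of 424, 408 and 427 in N2 and of 353, 321 and 325 in CN30 (-0.33 ± 0.06, adjusted p = 0.0378). The 3 that rose were the Argonaute genes sago-1 (0.68 ± 0.12, adjusted p = 0.0377), alg-2 (0.60 ± 0.09, adjusted p = 0.0319) and nrde-3 (0.56 ± 0.10, adjusted p = 0.0391), and the last of these is known from somatic cells. Of 32 DNA replication genes 3 fell, psf-1, psf-2 and orc-1, at -0.40 to -0.28, and of 45 cell division genes 0 changed. For the latter list the median was -0.05. Of 17 tested sperm development genes 0 passed, with medians of 2.2, 0.62 and -0.50 by day. Of 19 genes of embryonic patterning 3 rose, ceh-27 (1.4 ± 0.15, adjusted p = 0.0261), elt-1 (1.21 ± 0.16, adjusted p = 0.0296) and unc-120 (1.02 ± 0.21, adjusted p = 0.0454), and the list sums, 294.6 to 311.5 FPKM (N2) and 277.3 to 311.2 (CN30), overlapped.

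Neuronal genes were called in the other direction. Of 74 neuron and synapse genes, 48 were expressed highly enough to be tested. Of the 48, 20 rose (41.7%), 0 fell and 28 did not pass, while 9.77% of all genes rose and 3.21% fell. Of all genes 35.8% were higher in CN30 in all pairs, and so were 37 of the 48. The median difference of these neuronal genes was 0.58, and nearly the same at each day (0.55, 0.61 and 0.56). Their summed FPKM was 703, 809 and 873 in N2 and 907, 999.7 and 1090 in CN30, so the groups did not overlap. The median was 0.09 at day 0. It was 0.55 without CN30 day 6 and 0.34 under quantile normalization, but 0 and 4 genes then passed.

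unc-33, which guides microtubules in axons, had FPKM of 32.6, 32.9 and 49.9 in N2 and of 58.7, 74.1 and 94.1 in CN30 (chromosome IV, 3516886 to 3526602, WBcel235). All CN30 values lay above all N2 values (0.96 ± 0.09, adjusted p = 0.0241). unc-18, a partner of syntaxin in transmitter release, had FPKM of 16.23, 16.42 and 19.3 in N2 and of 25.6, 31.8 and 31.7 in CN30 (0.74 ± 0.11, adjusted p = 0.0316). unc-7, an innexin gene of electrical synapses, was low in both strains, with FPKM of 0.79, 0.89 and 1.3 in N2 and of 2.69, 2.55 and 3.39 in CN30 (0.96 ± 0.16, adjusted p = 0.0346). Ciliary genes, used only in sensory neurons, moved alike, and 22 of 39 were tested. Of these 8 rose (36.4%, against 9.77% of all genes) and 0 fell. All pairs were higher in CN30 in 21 of the 22, against 35.8% of all genes. Without CN30 day 6 only 16 were tested and 0 passed, with a median of 0.88 as in the full fit. Under quantile normalization the median was 0.51 and 1 gene passed. The summed FPKM was 37.2, 40.6 and 63.7 in N2 against 87.9, 107 and 110.2 in CN30. dyf-3, which acts in building cilia, had FPKM of 1.83, 1.68 and 1.27 in N2 and of 5.42, 7.74 and 6.58 in CN30, at more than the highest N2 value in every CN30 library (1.54 ± 0.20, adjusted p = 0.0294). The ciliary tubulin gene tbb-4 had FPKM of 5.23, 5.8 and 20.4 in N2 and of 54.1, 44.7 and 59.4 in CN30 (2.46 ± 0.33, adjusted p = 0.0297).

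**Figure D3:**
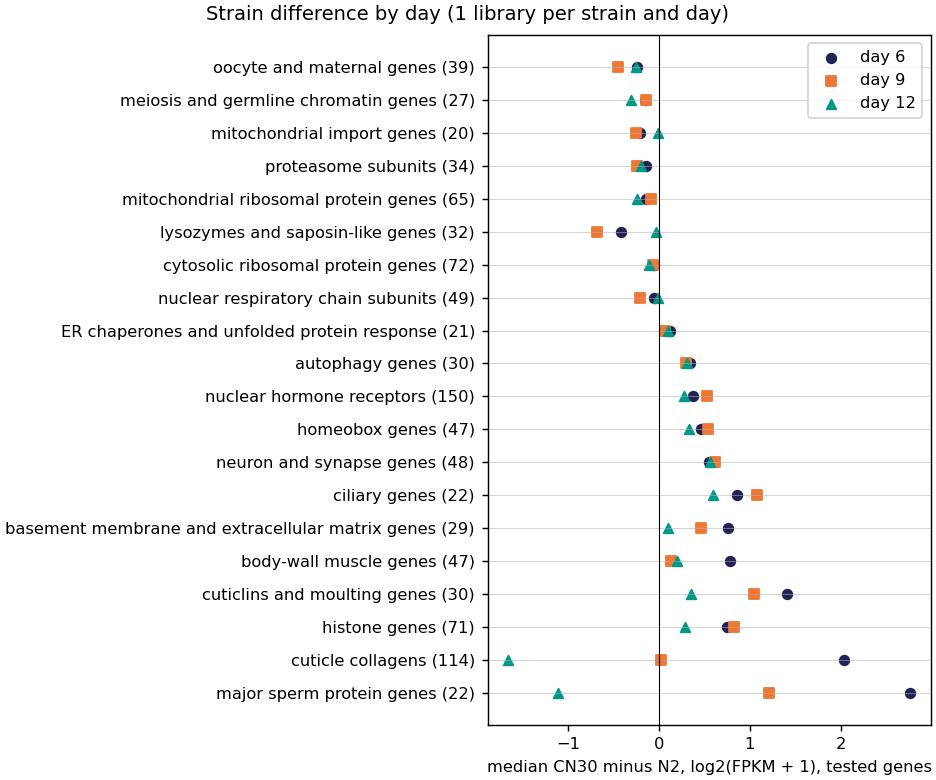
Median log2 difference between the strains over the tested genes of 20 lists, at days 6, 9 and 12, with the number tested in brackets. Symbols of the neuron list lie together at 0.55 to 0.61, whereas those of the collagen list spread from 2.04 at day 6 to -1.67 at day 12.

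Lists of transcription factors and signalling genes held more higher than lower calls, as did all genes together (9.77% and 3.21%). Of 47 tested homeobox genes 11 rose (23.4%) and 0 fell (median 0.46). zag-1, a zinc finger and homeodomain factor of neurons, had FPKM of 1.08, 1.04 and 1.93 in N2 and of 4.66, 5.7 and 6.24 in CN30 (1.49 ± 0.18, adjusted p = 0.0278). The Hox gene ceh-13 had FPKM of 5.67, 5.58 and 8.14 in N2 and of 15.5, 13.1 and 14.8 in CN30 (1.06 ± 0.16, adjusted p = 0.0323). Of 150 nuclear hormone receptor genes, a family that is expanded in nematodes, 21 rose (14%) and 1 fell (median 0.39). nhr-3 had FPKM of 7.35, 12.9 and 17.03 in N2 and of 15.8, 31.9 and 41.8 in CN30 (1.17 ± 0.12, adjusted p = 0.0241), while the single fall was nhr-116, a neighbour of fbxa-206, with FPKM of 1.74, 1.29 and 1.7 in N2 and of 0.56, 0.06 and 0.17 in CN30. Of 94 neuropeptide and insulin-like peptide genes 10 rose (10.6%) and 0 fell (median 0.24). flp-5, a FMRFamide-like peptide gene, had FPKM of 10.2, 13.8 and 15.5 in N2 and of 18.2, 43.1 and 57.3 in CN30 (1.39 ± 0.23, adjusted p = 0.0349), and nlp-16 had FPKM of 7.99, 8.27 and 18.1 in N2 and of 15.8, 29.2 and 48.3 in CN30 (1.32 ± 0.18, adjusted p = 0.0301). Of 81 ion channel genes 10 rose (12.35%), among them the BK potassium channel gene slo-1 (1.1 ± 0.19, adjusted p = 0.037), and 2 fell. One of these, inx-14, encodes an innexin that joins oocytes to the gonadal sheath (-0.33 ± 0.07, adjusted p = 0.0492). The shares of the neuropeptide and ion channel lists lie near that of all genes. Under quantile normalization their medians turned to -0.05 and -0.11, and the higher calls dropped to 4 homeobox, 4 receptor, 1 peptide and 1 channel gene.

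Muscle, matrix and cuticle lists had their largest medians at day 6, where the CN30 library stood apart. Of 47 body-wall muscle genes 5 rose (10.6%) and 0 fell, with medians of 0.78, 0.13 and 0.20 at days 6, 9 and 12 and of 0.36 over all. Without CN30 day 6 the median was 0.16. act-4, an actin gene of muscle, had FPKM of 159, 153 and 184 in N2 and of 373, 274 and 297 in CN30 (chromosome X, 4960621 to 4964413, WBcel235) (0.92 ± 0.12, adjusted p = 0.0294), with no overlap. pat-2, the alpha integrin that anchors muscle, had FPKM of 4.56, 5.22 and 9.17 in N2 and of 12.99, 17.4 and 17.6 in CN30 (1.26 ± 0.19, adjusted p = 0.0316). Of 29 basement membrane genes 3 rose (10.3%), pat-2 among them, sdn-1 for syndecan (0.80 ± 0.10, adjusted p = 0.029) and lam-2 for a laminin chain (1.21 ± 0.26, adjusted p = 0.0489). The shares of both lists lie near the 9.77% of all genes. Of 30 cuticlin and moulting genes 6 rose (20%), with a median of 1.0, and of 0.67 without CN30 day 6. Of 114 tested cuticle collagens 6 rose (5.26%, below the 9.77% of all genes) and 0 fell. The collagen median went from 2.04 at day 6 through 0.02 at day 9 to -1.67 at day 12. Without CN30 day 6 the collagen median was -1.17, with 0 higher and 4 lower genes. Without N2 day 12 it was 0.93, with 18 higher and 0 lower genes. col-113 was one that rose, with FPKM of 1.72, 1.1 and 6.41 in N2 and of 11.07, 18.6 and 22.8 in CN30 (2.35 ± 0.33, adjusted p = 0.0301). Of 22 major sperm protein genes 0 passed, with medians of 2.77, 1.21 and -1.11, so no direction held over the 3 days.

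Genes on the X chromosome were higher in CN30 more often than autosomal genes, a difference given as counts with no test because genes of one library are not independent. The X is known for carrying few genes that are used in the germ line and is largely silent there. Of 1834 tested X genes 298 were higher and 32 lower, against 972 and 386 of 11158 autosomal genes (8.71% and 3.46%). The median difference was 0.35 on the X and 0.02 on the autosomes. It was 0.39, 0.36 and 0.28 on the X at days 6, 9 and 12, and 0.15 at day 0. At low levels the chromosomes were alike: below 5 FPKM 95 of 815 X genes and 348 of 3147 autosomal genes were higher. Between 20 and 100 FPKM the shares were 29.5% (92 of 312) and 6.02%. Among single autosomes the share of higher calls lay between 6.92% on I and 11.6% on V.

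Protein turnover genes moved in both directions, by pathway. Of 34 proteasome subunit genes 4 fell (11.8%) and 0 rose, against 3.21% and 9.77% of all genes. All pairs had the same sign, lower in CN30, in 28 of the 34, and in 24.2% of all genes. The list had a median of -0.18. The core subunit gene pbs-1 had FPKM of 401, 373 and 313 in N2 and of 314, 292 and 259 in CN30 (-0.32 ± 0.05, adjusted p = 0.037), with overlap only between CN30 day 6 and N2 day 12. Of 30 autophagy genes 6 rose (20%) and 0 fell (median 0.32, and 0.34, 0.30 and 0.31 by day). sqst-1, which encodes the autophagy receptor p62, had FPKM of 38.3, 57.8 and 105 in N2 and of 87.9, 152 and 229.9 in CN30 (chromosome IV, 12034282 to 12036891, WBcel235). It increased with day in both strains, and each CN30 value exceeded the N2 value of its day (1.23 ± 0.08, adjusted p = 0.0183). dct-1, a mitophagy receptor gene, had FPKM of 21.8, 21.9 and 34.5 in N2 and of 43.5, 54.1 and 75.5 in CN30 (1.11 ± 0.10, adjusted p = 0.0238), and hlh-30, the worm TFEB that drives autophagy and lysosome genes, had FPKM of 21.9, 24.5 and 32.1 in N2 and of 33.8, 36.95 and 50.1 in CN30 (0.60 ± 0.08, adjusted p = 0.0301). The autophagy list summed to 1089, 1161 and 1323 FPKM in the N2 libraries and to 1314, 1398 and 1670 in those of CN30, where day 6 lay below N2 day 12.

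Chaperones did not share a direction. hsp-12.3, a small heat shock gene, had one of the largest rises, with FPKM of 4.98, 5.67 and 2.14 in N2 and of 55.02, 45.8 and 30.7 in CN30 (chromosome IV, 9444791 to 9445314, WBcel235) (3.12 ± 0.16, adjusted p = 0.0173). The lowest CN30 value was above the highest of N2, and the call held without CN30 day 6 and without N2 day 6. Its neighbour hsp-12.6 had FPKM of 4.8, 7.85 and 6.33 in N2 and of 17.4, 14.8 and 15.8 in CN30 (1.23 ± 0.20, adjusted p = 0.035). sip-1, a small heat shock gene that is known from oocytes and embryos, went the other way, with FPKM of 469, 413 and 292 in N2 and of 289.9, 274 and 216 in CN30 (-0.57 ± 0.07, adjusted p = 0.029). The heat-inducible gene hsp-16.2, chosen after its values were seen, had FPKM of 34.99, 131 and 9.38 in N2 and of 8.25, 18.6 and 33.5 in CN30 (-0.99 ± 0.90, adjusted p = 0.461), and its highest library was N2 day 9. Of 29 cytosolic chaperone genes 0 passed. Of 21 genes for folding in the endoplasmic reticulum 4 rose (19%, against 9.77% of all genes) and 0 fell. Among the 4 were pdi-2 and pdi-6 for disulfide isomerases (0.56 ± 0.08, adjusted p = 0.0301 and 0.52 ± 0.06, adjusted p = 0.0278). Another was xbp-1, the transcription factor of the unfolded protein response, with FPKM of 125, 165 and 195 in N2 and of 179, 241 and 344 in CN30 (0.63 ± 0.08, adjusted p = 0.0294). crt-1, which encodes the abundant chaperone calreticulin, had FPKM of 885, 956 and 1014 in N2 and of 1158, 1192 and 1339 in CN30 (0.37 ± 0.06, adjusted p = 0.0321).

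**Figure D4:**
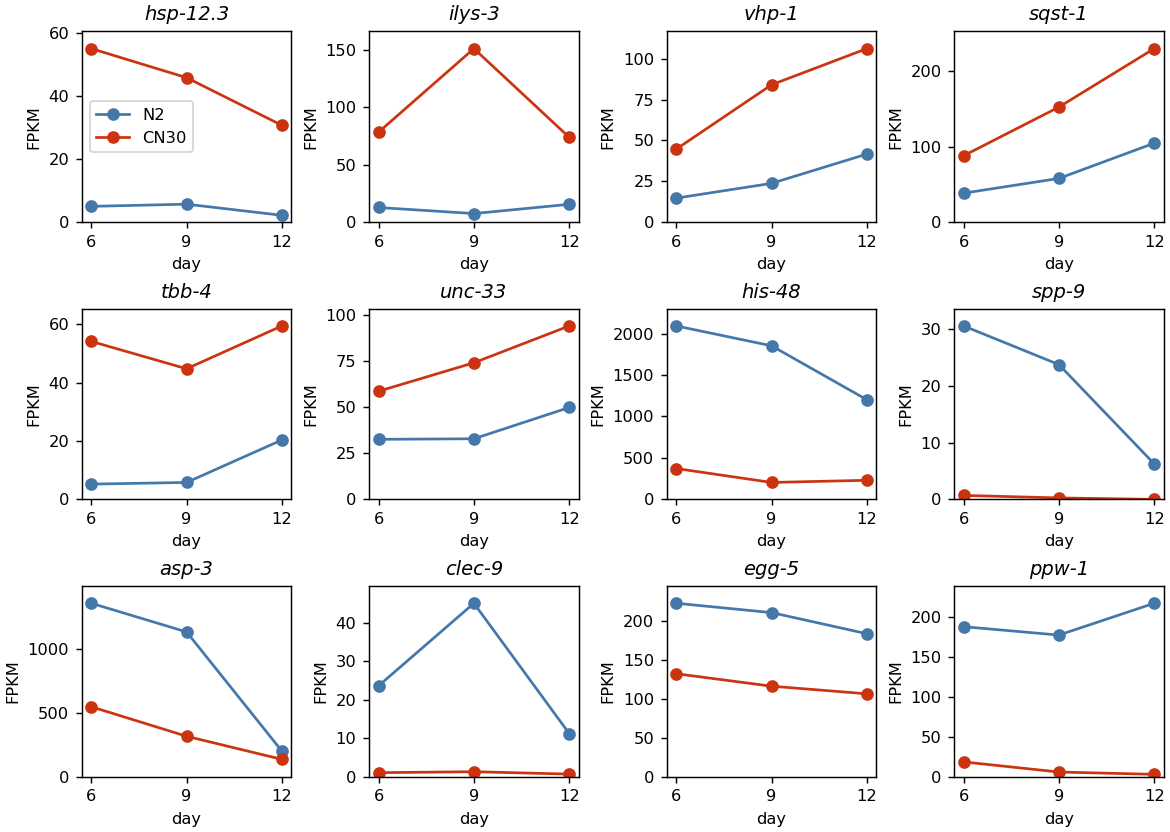
FPKM of single genes at days 6, 9 and 12 in N2 and CN30, with 1 library per point and a linear axis from 0. The hsp-12.3 values of CN30 lie at 30.7 to 55.02 against 2.14 to 5.67 in N2, and his-48 shows the reverse.

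In the lists of nuclear genes for mitochondrial proteins given in this paragraph, all calls but 1 were lower in CN30. The mitophagy receptor gene dct-1, which was higher, is in the autophagy list. Of 49 nuclear genes for respiratory chain subunits 1 rose and 1 fell (median -0.08), shares of 2.04% each against 9.77% and 3.21% of all genes. The fall was asg-1, an ATP synthase subunit gene, with FPKM of 576, 581 and 492 in N2 and of 483, 465 and 415 in CN30 (-0.27 ± 0.05, adjusted p = 0.0444). The rise was ucr-2.1, a complex III gene, with FPKM of 51.7, 56.7 and 42.01 in N2 and of 87.2, 82.4 and 77 in CN30 (0.71 ± 0.09, adjusted p = 0.0294). Of 28 tricarboxylic acid cycle genes 0 passed. Of 65 mitochondrial ribosomal protein genes 5 fell (7.69%) and 0 rose (median -0.18). All pairs were lower in CN30 in 37 of the 65, against 24.2% of all genes. Of 20 import genes 2 fell (10%), mtx-1 for metaxin (-0.44 ± 0.07, adjusted p = 0.0321) and tin-9.1 for a small Tim chaperone (-0.41 ± 0.08, adjusted p = 0.0438). Of 22 genes of the mitochondrial unfolded protein response 1 fell (4.55%), hsp-60, with FPKM of 351, 350.5 and 312 in N2 and of 296, 221 and 228 in CN30 (-0.45 ± 0.09, adjusted p = 0.0467). Of 20 genes of mitochondrial dynamics and genome maintenance 2 fell (10%), immt-2 and mtss-1 (median -0.09). Under quantile normalization, which moved the median of all genes to -0.04, the medians of the proteasome, mitochondrial ribosomal and import lists were -0.15, -0.16 and -0.21, and 0, 2 and 1 of their genes were lower.

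Translation genes included paralogs that moved apart. The elongation factor gene eef-1A.2 had FPKM of 167, 174 and 257 in N2 and of 366, 382 and 457 in CN30, with no overlap (1.03 ± 0.08, adjusted p = 0.0227). iff-2, one of the genes for eIF5A, had FPKM of 88.1, 117 and 137 in N2 and of 165, 191 and 257 in CN30 (0.84 ± 0.07, adjusted p = 0.0227). Of the paralogous ribosomal protein genes rpl-11.1 and rpl-11.2, the former was lower (FPKM of 892, 1087 and 1069 in N2 and of 721, 904 and 886 in CN30; -0.28 ± 0.05, adjusted p = 0.0431). rpl-11.2, on the X, was higher, with FPKM of 298, 350.4 and 303 in N2 and of 386, 481 and 493 in CN30 (0.51 ± 0.08, adjusted p = 0.0341). They were the only 2 of 72 cytosolic ribosomal protein genes that passed. Among genes for the cap-binding factor eIF4E, ife-3 fell (-0.35 ± 0.06, adjusted p = 0.0405) and ife-4, on the X, rose (0.98 ± 0.13, adjusted p = 0.0297). Of 30 aminoacyl-tRNA synthetase genes 4 rose (13.3%, against 9.77% of all genes) and 0 fell. Among the 4 were sars-1 (0.52 ± 0.07, adjusted p = 0.0309) and lars-1 (0.47 ± 0.07, adjusted p = 0.0304). That list had a median of 0.00, and after median-ratio rescaling 2 were higher and 4 lower, so no direction of the list held across scalings.

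Immune effectors were mixed. Of 30 genes of the innate immunity list 8 rose (26.7%) and 1 fell (3.33%), against 9.77% and 3.21% of all genes. The balance depended on the scaling and on single libraries. Its median was 0.16, but -0.10 under quantile normalization, with 5 higher and 2 lower genes. Without N2 day 12 the list held 4 higher and 4 lower genes. vhp-1, a phosphatase of stress kinases, had FPKM of 14.7, 23.7 and 41.6 in N2 and of 44.7, 84.1 and 106 in CN30 (1.55 ± 0.11, adjusted p = 0.0207), and it increased with day in both strains. The antimicrobial peptide genes cnc-1 and abf-2 were higher as well (1.56 ± 0.16, adjusted p = 0.0241 and 0.75 ± 0.08, adjusted p = 0.0246). The single fall was dod-24, with FPKM of 214, 91.5 and 10.4 in N2 and of 92.4, 45.5 and 6.92 in CN30 (-0.91 ± 0.15, adjusted p = 0.0349). The lysozyme gene ilys-3 had FPKM of 12.7, 7.4 and 15.4 in N2 and of 78.3, 151 and 73.8 in CN30 (chromosome IV, 2464456 to 2465443, WBcel235). Its lowest CN30 library, day 12, lay above the highest of N2 (2.97 ± 0.40, adjusted p = 0.0297). clec-9, a C-type lectin gene, had FPKM of 23.6, 44.99 and 11.21 in N2 and of 1.05, 1.3 and 0.68 in CN30, and each CN30 library was far below each of N2 (-3.59 ± 0.31, adjusted p = 0.0238). At day 0 both were near 0, with means of 0.123 FPKM in N2 and 0.417 in CN30 for ilys-3 and of 0.05 and 0.0133 for clec-9. The ferritin gene ftn-1 had FPKM of 23.2, 26.5 and 12.62 in N2 and of 67.2, 51.6 and 35.4 in CN30 (1.28 ± 0.14, adjusted p = 0.0261).

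Some genes for digestive enzymes of the intestine were lower in CN30. The 32 tested lysozyme and saposin-like genes held 6 that fell (18.75%) and 2 that rose (6.25%), against 3.21% and 9.77% of all genes. Their median was -0.35, and -0.42, -0.69 and -0.04 by day. Their summed level dropped from 8610 and 8045 FPKM in N2 at days 6 and 9 to 1864 at day 12, and was 5411, 3312 and 1428 in CN30. spp-5, a pore-forming saposin-like gene, had FPKM of 2315, 2195 and 548 in N2 and of 1236, 644 and 272 in CN30 (chromosome X, 7319937 to 7320354, WBcel235) (-1.23 ± 0.18, adjusted p = 0.0319). spp-9 was near 0 in CN30, with FPKM of 30.6, 23.8 and 6.27 in N2 and of 0.7, 0.26 and 0 in CN30 (-3.79 ± 0.34, adjusted p = 0.0238). asp-3, an aspartic protease gene, had FPKM of 1357, 1133 and 201 in N2 and of 547, 317 and 136 in CN30, so that CN30 day 6 lay above N2 day 12 while each pair had the same sign (-1.24 ± 0.24, adjusted p = 0.044). The cathepsin B-like gene cpr-5 had FPKM of 172, 168 and 99.9 in N2 and of 115, 71.1 and 48.5 in CN30 (-0.94 ± 0.14, adjusted p = 0.0311), and the lysosomal lipase gene lipl-1 had FPKM of 75.7, 68.8 and 20.2 in N2 and of 25.6, 16.42 and 9.13 in CN30 (-1.53 ± 0.20, adjusted p = 0.0294). At day 0 the means of spp-5 were 1330 FPKM in N2 and 1670 in CN30, and those of asp-3 1130 and 1610, so these means were higher in CN30 at day 0. Of 39 lysosomal and vacuolar ATPase genes 3 fell (7.69%), cpr-5, asp-3 and asp-5, and 1 rose (2.56%), vha-20 (0.58 ± 0.11, adjusted p = 0.043). The 27 tested intestine genes gave 1 rise, ftn-1, and 0 falls, and they summed to 3994, 3900 and 1703 FPKM in the N2 libraries and to 2990, 2091 and 1479 in those of CN30.

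The 6 vitellogenin genes for yolk proteins, which the intestine makes, gave 0 calls. They summed to 7450, 7966 and 1985 FPKM in the N2 libraries and to 6458, 3365 and 1584 in those of CN30. vit-5, chosen after its values were seen, had FPKM of 2905, 3127 and 568 in N2 and of 1901, 895 and 385 in CN30 (-0.99 ± 0.27, adjusted p = 0.0718), and vit-2 had FPKM of 1218, 1540.4 and 500.0 in N2 and of 1526, 1024 and 491 in CN30 (-0.10 ± 0.18, adjusted p = 0.725). The list median was 0.34 at day 6 and -1.27 and -1.23 at days 9 and 12. Enzymes of fat metabolism that rose include fasn-1, the fatty acid synthase gene, with FPKM of 52.3, 61.8 and 86.04 in N2 and of 156, 134 and 133 in CN30 (1.1 ± 0.18, adjusted p = 0.0366), and acox-1.1, a peroxisomal acyl-CoA oxidase gene (0.60 ± 0.11, adjusted p = 0.04). elo-6, an elongase gene, fell (-0.44 ± 0.08, adjusted p = 0.0391).

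**Figure D5:**
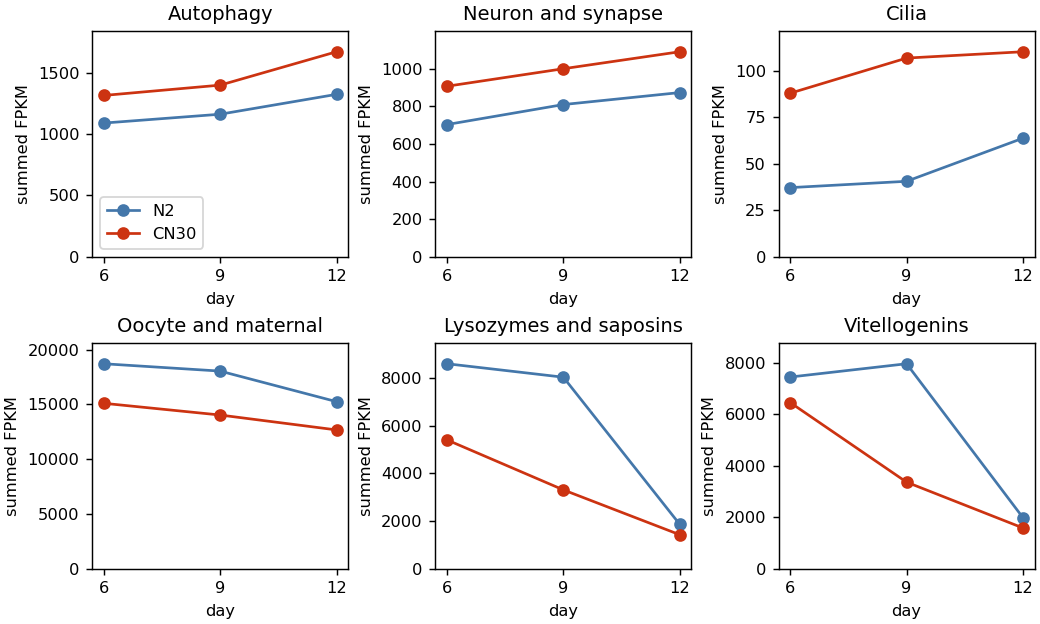
Summed FPKM of gene lists in each library against day, N2 and CN30 as separate lines, with axes from 0 and no replicates within a day. Oocyte genes were lower in CN30 at each day (18710 against 15100 at day 6), and neuron genes higher (703 against 907).

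Histone genes were split within the family. Of 71 tested, 22 rose (31%), 6 fell (8.45%) and 43 did not pass, with a median of 0.79. Of all genes 9.77% were higher and 3.21% lower. Without CN30 day 6 the median was 0.69, but 0 were higher and 2 lower, whereas without N2 day 12 37 were higher and 5 lower. his-48, an H2B gene, had FPKM of 2092, 1852 and 1202 in N2 and of 372, 204 and 230.5 in CN30 (chromosome IV, 11324745 to 11325116, WBcel235) (-2.68 ± 0.17, adjusted p = 0.0183), with the highest CN30 library below the lowest of N2. his-60 had FPKM of 1149, 1020.1 and 771 in N2 and of 508, 399 and 325 in CN30 (-1.26 ± 0.06, adjusted p = 0.0173). Both calls held without CN30 day 6 and without N2 day 6. his-64 was higher, with FPKM of 3037, 2749.8 and 2230.0 in N2 and of 4571, 5939.6 and 4584 in CN30 (0.91 ± 0.12, adjusted p = 0.0297), and so was its neighbour his-63, with FPKM of 1377, 1156 and 714 in N2 and of 2321, 2223 and 1181 in CN30 (0.81 ± 0.07, adjusted p = 0.0238). On chromosome V his-54 (1.34 ± 0.21, adjusted p = 0.0341), his-17 (1.34 ± 0.13, adjusted p = 0.0241) and his-6 (0.65 ± 0.05, adjusted p = 0.0227) were higher. Worm histone genes exist in near-identical copies, so how reads were shared among copies limits each of these values, and summed histone FPKM (37360, 32920 and 24290 in N2, 40510, 43070 and 28920 in CN30) overlapped between the strains. Many histone transcripts lack a poly(A) tail, so their values depend on how RNA was selected, which the sources used here do not state. hil-4, a linker histone gene, fell (-0.27 ± 0.05, adjusted p = 0.0429).

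Large families of detoxifying, lectin and F-box genes held calls in both directions. Of all genes 9.77% were higher and 3.21% lower. Among 174 tested genes with an F-box or BATH domain, 14 rose (8.05%) and 16 fell (9.2%). Of 69 C-type lectin genes 4 rose (5.8%) and 8 fell (11.6%). The balance of the F-box list depended on the scaling and on single libraries. Its median was 0.21, but -0.09 under quantile normalization, with 4 higher and 14 lower genes. Without N2 day 12 it held 17 higher and 5 lower genes. fbxa-114 and fbxa-113, neighbours on chromosome V, went opposite ways, at -1.24 ± 0.10, adjusted p = 0.0227 and 1.78 ± 0.20, adjusted p = 0.0276. Of 33 ABC transporter genes 5 rose (15.15%) and 3 fell (9.09%), and of 39 cytochrome P450 genes 4 rose (10.3%) and 2 fell (5.13%). Of 44 UDP-glycosyltransferase genes 3 rose (6.82%) and 2 fell (4.55%). The shares of higher calls in the F-box, lectin, cytochrome P450 and UDP-glycosyltransferase lists lie near or below that of all genes. Of 33 glutathione S-transferase genes 1 rose (3.03%), gst-39, with FPKM of 11.23, 12.9 and 12.21 in N2 and of 29.9, 40.8 and 48.02 in CN30 (1.61 ± 0.14, adjusted p = 0.0238). At day 0 gst-39 also stood higher in CN30, at 69.2 FPKM against 24.2. Of 44 transthyretin-related genes 8 rose (18.2%) and 0 fell, among them ttr-17, with FPKM of 35.9, 42.03 and 27.9 in N2 and of 111, 75.6 and 62.7 in CN30 (1.19 ± 0.16, adjusted p = 0.0296). Among 29 antioxidant genes 3 rose (10.3%) and 1 fell (3.45%), shares near those of all genes. The superoxide dismutase genes sod-4 (0.67 ± 0.13, adjusted p = 0.0448) and sod-5 (1.05 ± 0.19, adjusted p = 0.04) rose. The catalase genes ctl-1 (-2.56 ± 0.41, adjusted p = 0.0337) and ctl-2 (1.92 ± 0.32, adjusted p = 0.0371) went opposite ways, but MXLOC_007021, which overlaps both, had a difference of -0.05 ± 0.11, adjusted p = 0.77, so the sharing of reads limits both values. Of 23 insulin signalling genes 1 passed, the AKT kinase gene akt-2 (0.56 ± 0.12, adjusted p = 0.0456).

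A last set of loci had large differences in the listed values at every age, day 0 included. With at least 4-fold differences in all 3 pairs and in the day-0 means, and 5 FPKM or more in the higher strain, 11 were lower and 10 higher in CN30. The lower ones lay on chromosomes I (2), III (4), IV (1) and V (4), and the higher ones on II (1), III (2), IV (1), V (3) and X (3). Y17G9B.8 and znf-598 are among the 10 higher ones and have the limit on read assignment described last. That limit is not confined to them. MXLOC_020436, also among the 10, has the same limit, since it overlaps col-178 and col-179. Their mean differences were in the other direction, and neither passed (-3.08 ± 0.87, adjusted p = 0.0779 and -1.28 ± 0.72, adjusted p = 0.261). At day 6 col-179 was higher in CN30 (74.99 against 47.99 FPKM). MXLOC_008588 was higher (3.45 ± 0.19, adjusted p = 0.0173), while mdt-29, which it overlaps, was lower (-0.52 ± 0.10, adjusted p = 0.0406). Of the higher loci only T16H12.1 had no same-strand partner listed, and its strand was not found. ppw-1, an Argonaute gene of germline RNA interference, had FPKM of 188, 177 and 217 in N2 and of 18.5, 5.87 and 2.98 in CN30 (-4.58 ± 0.47, adjusted p = 0.0246). MXLOC_000398 over it did not pass (0.28 ± 0.21, adjusted p = 0.379), and had FPKM of 21.4, 22.1 and 27.7 in N2 and of 39.1, 24.9 and 24.6 in CN30. The F-box gene fbxa-192 had FPKM of 26.9, 25.5 and 20 in N2 and of 2.79, 2.16 and 2.33 in CN30 (chromosome V, 17640672 to 17650527, WBcel235) (-2.87 ± 0.16, adjusted p = 0.0173), and Y94H6A.10 had FPKM of 158, 377 and 85.6 in N2 and of 17.8, 5.85 and 6.3 in CN30 (-4.15 ± 0.54, adjusted p = 0.0294). T16H12.1 was higher, with FPKM of 2.12, 1.3 and 1.88 in N2 and of 15.9, 15.8 and 15.6 in CN30 (2.61 ± 0.17, adjusted p = 0.0188). C13G5.2 fell by more (-3.35 ± 0.34, adjusted p = 0.0241) than MXLOC_009563 over it (-0.80 ± 0.12, adjusted p = 0.0319), and likewise T16G12.3 (-3.37 ± 0.24, adjusted p = 0.0207) against MXLOC_008216 (-1.12 ± 0.15, adjusted p = 0.0297). The calls of ppw-1, C13G5.2 and fbxa-206 held both without CN30 day 6 and without N2 day 6.

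Other large differences are limited by how reads were assigned. 5 annotated genes at 5 FPKM or more in one strain were listed at 0 in all 3 libraries of the other, Y54G11A.2 and K09F6.7 in CN30 and Y17G9B.8, Y50E8A.5 and znf-598 in N2. Each overlaps an assembled locus on the same strand. Over Y17G9B.8, which had 33.1, 32.3 and 29.5 FPKM in CN30, MXLOC_012475 had FPKM of 37.1, 24.7 and 25.2 in N2 and of 36.1, 31.5 and 29.3 in CN30 with an adjusted p of 0.315. The loci over Y54G11A.2, Y50E8A.5 and znf-598 (MXLOC_005085, MXLOC_018581 and MXLOC_004228) had adjusted p of 0.0504, 0.48 and 0.311. Reads given to the gene or to the locus are thus not told from a difference in expression, and no fold is given for these genes. npp-2 has the same limit, since MXLOC_002498 over it did not pass (adjusted p = 0.333). Among higher genes without such a locus, F53A9.7 and F15G9.1, both on the X and with no role given here, had FPKM of 31.04, 49.2 and 69.3 in N2 and of 76.4, 134 and 192 in CN30 (1.39 ± 0.07, adjusted p = 0.0173) and FPKM of 27.7, 38.97 and 52.6 in N2 and of 68.5, 91.1 and 115 in CN30 (1.2 ± 0.07, adjusted p = 0.0183). F35E8.10 and F35E8.13 had identical values in every library, FPKM of 14.3, 15.1 and 8.34 in N2 and of 1, 0.8 and 0.46 in CN30, and cannot be told apart.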

How the data were processed

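The deposited table of mRNA genes holds FPKM per gene and library, which the authors computed, per the file headers. HISAT, StringTie and the build WBcel235 are named in the submitters' processing notes without versions or roles, and no filter is given in the sources used here. A second deposited table holds other values, exon counts, lengths and positions of assembled transcripts, per the file headers, and has no value per sample. Gene symbols came from RefSeq (18888 of 22191 rows matched, 3167 rows are assembled loci and 136 had no match), and strands and overlaps from the Ensembl annotation of WBcel235.

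The 6 libraries of days 6, 9 and 12 were fitted with limma 3.58.1 (R 4.3.3) on the log2(FPKM + 1) scale, with terms for strain and for day as a factor and eBayes with a trend. Genes needed 1 FPKM in at least 3 libraries. Two-sided p-values were adjusted over the 13015 genes by the Benjamini-Hochberg method, and the threshold was 0.05. FPKM are not counts and the depth is unknown, so no counting interval is given.

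Members and gene lists were chosen with earlier results of these data known, and lists are described by counts and medians with no set test. Serpin genes were taken out of the chemoreceptor list after the data were read. Named genes had an adjusted p under 0.05, at least 5 FPKM in the higher strain, the same sign in 3 pairs and no overlap. From these came, in each direction, the 10 largest differences of annotated genes, the 5 largest of assembled loci, the 6 smallest p and the 8 most abundant genes. From each list up to 3 called genes with the smallest p were added, whatever their level; a few others are said to be chosen after their values were seen. Alternatives were another pseudocount, other filters, 2 other scalings, robust shrinkage, no trend, no day term, linear day, a joint fit with the day-0 libraries and each library left out; both libraries of a day were left out in fits added after seeing the data. Summaries used pandas 2.3.3 and NumPy 2.4.6 under Python 3.11.15, and plots used Matplotlib 3.10.9.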

Additional observations from a re-analysis of the deposited data

How the results depend on the processing

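The 1690 calls became 1365 with a pseudocount of 0.1, 1906 with robust shrinkage, 1331 without the trend (85.2% higher in CN30 against 75.3%) and 2042 after median-ratio rescaling (60.1% higher). Counts moved by over 1.5 times to 873 under quantile normalization (62.8% higher), 1104 with a mean of 5 FPKM or more, 2868 with linear day, 3924 in a joint fit of 12 libraries and 2 without a filter (6294 at an unadjusted p under 0.05). The joint fit has 1 term per strain and day, so its spread comes from the day-0 replicates and not from the later pairs. With 1 library left out the counts lay between 0 and 1050. With both libraries of day 6, 9 or 12 left out, added after seeing the data, 9, 0 and 614 passed (2725 at an unadjusted p under 0.05 without day 9). Fits with fewer pairs also have fewer residual degrees of freedom. No replicate block, that is no day term, left 134 calls, 86 higher and 48 lower. The pairing rests on age alone: deviations of same-day libraries from their strain means had correlations across genes of 0.401, 0.0313 and 0.434 at days 6, 9 and 12. Where expression changes steadily with age the middle day lies near the strain mean, so the low value at day 9 cannot judge the pairing there. Of 197 named genes and loci, 147 passed under quantile normalization, 17 of 186 tested without CN30 day 6 and 41 without the day term. With 1 library per strain and day, no difference at a single day was tested, and unknown depth limits genes near 1 FPKM.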
